A study of Drosophila melanogaster with 9 samples.

Results

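Ovaries of the Drosophila melanogaster line Pcif1F9ΔNLS were compared with ovaries of the control line Pcif1BG02557 by RNA sequencing. The comparison takes in 6 of the 9 libraries of the study, 3 of each line, chosen by the genotype in the labels. F9ΔNLS is a CRISPR-Cas9 allele made in a w1118 background that lacks the stretch encoding the nuclear localization signal of Pcif1 while keeping the reading frame, and its protein has 829 amino acids. The control line carries a P{GT1} element in the first intron of Pcif1, so it is itself an insertion line and not a wild type. The F9ΔNLS allele was backcrossed repeatedly to that control line. Ovaries were taken as 3 pairs per line, ribosomal RNA was depleted from total RNA, and libraries were read as paired ends. The other 3 libraries come from M6stop, a frameshift allele from the same editing experiment, whose values share the control libraries with those of F9ΔNLS. The age of the flies is not given in the sources used here, and F9ΔNLS is 1 allele, so effects of the allele and of other sequence carried by the line cannot be told apart.

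Pcif1 is the fly relative of the vertebrate PCIF1, a nuclear protein that attaches to the phosphorylated carboxy-terminal tail of RNA polymerase II and that in mammals methylates the adenosine next to the mRNA cap. The fly relative is thought to lack that methyltransferase activity. A nuclear localization signal is a short stretch of basic residues that import receptors recognise in order to carry a protein into the nucleus. An ovary holds strings of egg chambers, each with an oocyte, polyploid nurse cells that supply it with RNA and proteins, and a layer of somatic follicle cells that replicate their genomes without dividing and then secrete yolk proteins and the eggshell, all within a muscle sheath.

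The values are those of the authors' deposited table, which gives each gene a mean normalized count over all 9 libraries, a log2 fold change of F9ΔNLS over BG02557 and an adjusted p from DESeq2. Of 17199 genes 10662 had an adjusted p, and these are the genes tested. Below, rose and fell mean that the DESeq2 adjusted p was under 0.05. The table's values per library carry codes that match no label, so no value per library, spread between libraries or interval of a fold change is given, and whether the libraries of the lines overlap for a gene is not known. The adjusted p measures a change against the spread between these libraries, whose separate origin from different flies is given by the labels only as replicates of a line. Fold changes appear to have been shrunk toward 0, so they may understate changes, more so in genes with few counts. Some abundant genes also passed at values near 0, such as Cp7Fb (-0.11, adjusted p = 0.025, DESeq2), at a mean of 4764 normalized counts. A value near 0 therefore does not by itself show that a gene was stable.

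The markers of ovarian cell types were present. Per kilobase of exon, the 6 germline markers had mean normalized counts between 438 and 12440 and the 6 follicle cell markers between 9.79 and 47507, whereas the 4 testis markers had at most 1.08. The germline genes osk, orb and aub rose, nos fell, and vas and bam did not pass, so the germline markers did not move one way. RNA of other tissues was present as well. The digestive enzyme genes alphaTry, betaTry, Jon65Aiii and Amy-p, markers of gut, had means of 13704 to 19920 normalized counts in the authors' deposited table, and none of the 24 gut genes tested passed, with log2 changes between -0.06 and 0.08. Which libraries hold that RNA is not known. Of the other marker sets, 5 of 6 muscle genes, 2 of 4 fat body genes, 1 of 4 tested hemocyte genes and 3 of 3 spermatheca genes rose, and 0 of 4 neuronal genes did. In bulk tissue, more cells of a type and more RNA per cell cannot be told apart, and this holds for every change below.

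Pcif1 RNA showed no detectable change. Pcif1, listed as CG11399 (FBgn0037021), lies on the minus strand of 3L between 20780350 and 20786197 (BDGP6) and had a mean of 3326 normalized counts and a log2 change of 0.02 in the authors' deposited table (adjusted p = 0.83, DESeq2). A count per gene does not show whether the deleted stretch is missing from that RNA. In M6stop the same gene had a log2 change of -2.51 in the authors' deposited table. The gene for the eye pigment transporter white, w, fell by 0.80 (adjusted p = 0.030, DESeq2), with a mean over all libraries of 32.1 normalized counts, in the authors' deposited table. Its span lies inside that of kirre, a gene of the opposite strand, and reads of the pair may be mixed.

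Changes were many, and most of the deposited values were small. Of the genes tested 2497 (23.4%) passed, of which 1233 (11.6%) rose and 1264 (11.9%) fell. The median absolute log2 change was 0.37 among genes that rose and 0.38 among those that fell. Of these, 164 genes (1.54% of those tested) rose and 106 (0.994%) fell by at least 1 on the log2 scale, together 2.53%. The median log2 change of all tested genes was 0.0040. The balance varied with the level. In the sixth decile of mean counts, between 570 and 867 normalized counts, 8.63% rose and 21.2% fell, and in the highest decile, from 3530 upward, 23% rose and 11.1% fell.

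**Figure D1:**
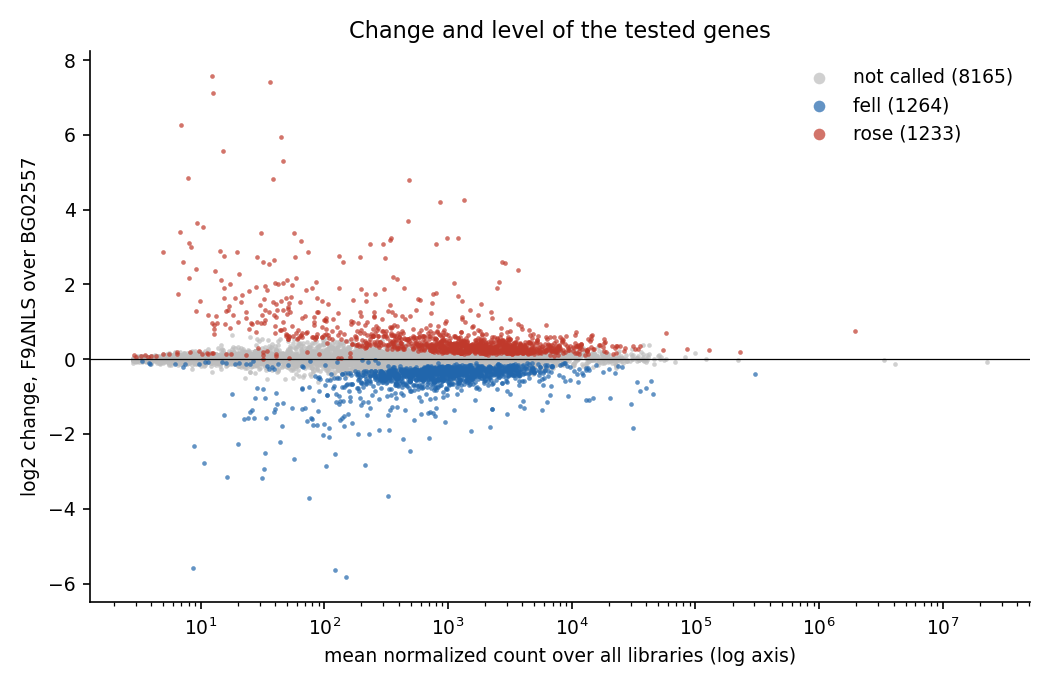
Each point is one of the 10662 tested genes, with its mean normalized count over all libraries on a log axis and its log2 change of F9ΔNLS over BG02557 on the vertical axis. Most of the 1233 genes that rose and 1264 that fell lie close to 0, and the largest changes belong to genes of low and middle counts.

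DNA replication genes had the highest share of falls among the 61 gene lists examined. Of 41 tested genes that load the replicative helicase or work at the fork, 36 (87.8%) fell and 0 rose, against 11.9% of all genes, and all 41 had a log2 change below 0, between -0.85 and -0.22. The list median was -0.45. Prim1 (DNApol-alpha50 in the authors' deposited table), the primase subunit that lays down RNA primers, fell by 0.85 (adjusted p = 4.3e-09, DESeq2). Mcm5, a subunit of the helicase ring, fell by 0.69 (adjusted p = 5.6e-07, DESeq2) in the authors' deposited table. The origin recognition genes Orc5 and Orc3 fell by 0.81 and 0.62 (adjusted p = 2.0e-05 and 3.1e-05, DESeq2) in the authors' deposited table. RnrS and RnrL, the subunits of the reductase that makes deoxynucleotides, fell by 0.59 and 0.57 (adjusted p = 3.6e-05 and 5.9e-04, DESeq2) in the authors' deposited table. The licensing factor gene dup, which is needed to load the helicase and for chorion gene amplification, fell by 0.39 (adjusted p = 0.014, DESeq2) in the authors' deposited table. In M6stop, measured against the same control libraries, 1 of the 41 fell and 0 rose, namely Mcm5 with a log2 change of -0.31 (adjusted p = 0.047, DESeq2) in the authors' deposited table. No test of F9ΔNLS against M6stop is given here. Over all tested genes far fewer rose and far fewer fell in M6stop than in F9ΔNLS. A low M6stop count in this or a later list therefore does not by itself set that list apart from other genes.

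Many genes of mitosis were lower too. Of 32 cyclin and cell cycle genes 17 (53.1%) fell and 1 rose, with a list median of -0.37. Those that fell included pim and thr, which encode securin and separase-like proteins of chromosome separation (-0.82 and -0.67, adjusted p = 0.0011 and 0.0010, DESeq2), in the authors' deposited table. The activators of the anaphase-promoting complex fzy and fzr fell by 0.60 and 0.42 (adjusted p = 7.7e-04 and 2.4e-04, DESeq2) in the authors' deposited table, and so did aurB, a kinase of the chromosomal passenger complex (-0.80, adjusted p = 9.1e-06, DESeq2). The 3 most abundant members, CycB, CycG and CycA, at means of 39780, 19163 and 16343 normalized counts, had values of -0.07, 0.08 and -0.06 (adjusted p = 0.66, 0.090 and 0.55, DESeq2) in the authors' deposited table.

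Histone and chromatin genes were examined as 3 lists. The replication-dependent histone genes had 14 (60.9%) of 23 tested copies down and 2 (8.7%) up, with a median of -0.62. The highest value in the list was 0.04, so both rises passed at values near 0, which shrinkage may understate. In M6stop 5 of the 23 copies fell and 1 rose. His1:CG33810, a copy of the linker histone gene, fell by 1.82 (adjusted p = 8.0e-11, DESeq2) in the authors' deposited table. Copies of a histone gene are nearly identical, so how reads were split between them is uncertain. Of 14 genes for histone variants and for the processing of histone mRNA 7 fell and 0 rose. Slbp, which binds the stem-loop at the end of histone mRNAs, fell by 0.37 (adjusted p = 0.0043, DESeq2), and cid, the centromeric histone gene, fell by 0.65 (adjusted p = 0.0061, DESeq2) in the authors' deposited table. The maternal linker histone gene BigH1 fell by 0.26 (adjusted p = 0.023, DESeq2), while the replacement histone gene His2Av had a value of -0.10 (adjusted p = 0.11, DESeq2), in the authors' deposited table. Of 18 genes of the HP1 family and of chromatin silencing 6 (33.3%) fell and 2 (11.1%) rose. HP1c and HP4 each fell by 0.42 (adjusted p = 6.6e-04 and 0.0016, DESeq2), and Su(var)3-7 fell by 0.30 (adjusted p = 0.034, DESeq2), in the authors' deposited table.

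Nucleolar genes had the highest share of rises among the 61 lists. Of 23 tested genes of RNA polymerase I and of ribosomal RNA maturation 19 (82.6%) rose and 0 fell, against 11.6% of all genes, and the list median was 0.40. Fib, the fibrillarin gene whose product methylates ribosomal RNA, rose by 0.66 (adjusted p = 3.2e-10, DESeq2) in the authors' deposited table. Nopp140, a snoRNP chaperone gene, rose by 0.63 (adjusted p = 7.7e-14, DESeq2) and nclb by 0.75 (adjusted p = 8.7e-08, DESeq2) in the authors' deposited table. Polr1B (RpI135 in the authors' deposited table), a core subunit of RNA polymerase I, rose by 0.58 (adjusted p = 8.2e-08, DESeq2). The same 23 genes had 0 calls by DESeq2 in either direction in M6stop, where Fib had a value of 0.10 (adjusted p = 0.46, DESeq2) in the authors' deposited table. The precursor of ribosomal RNA listed as pre-rRNA:CR45847 rose by 0.74 (adjusted p = 2.4e-07, DESeq2), with a mean of 1958700 normalized counts, in the authors' deposited table. Mature 18S and 28S genes (18SrRNA:CR45838 and 28SrRNA:CR45844) had values of -0.01 and -0.09 (adjusted p = 0.94 and 0.48, DESeq2) in the authors' deposited table. These libraries were depleted of ribosomal RNA and the repeats are nearly identical, so what these values measure is uncertain.

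Genes of protein synthesis rose in part. Of 35 translation initiation genes 11 (31.4%) rose and 0 fell, and of 34 aminoacyl-tRNA synthetase genes 9 (26.5%) rose and 0 fell. eIF4G1, the scaffold that joins the cap-binding protein to the ribosome, rose by 0.55 (adjusted p = 5.2e-10, DESeq2) and eIF5B, which joins the ribosomal subunits, by 0.43 (adjusted p = 1.1e-04, DESeq2) in the authors' deposited table. IleRS, which charges the isoleucine tRNA, rose by 0.37 (adjusted p = 4.2e-08, DESeq2) in the authors' deposited table. The elongation factor genes eEF2 and eEF1alpha1 rose by 0.25 and 0.20 (adjusted p = 0.0098 and 0.033, DESeq2) in the authors' deposited table. Of 87 cytoplasmic ribosomal protein genes 0 rose and 2 (2.30%) fell, with a median of 0.01. One of the falls was that of RpS5b, a paralog used in the female germline (-0.34, adjusted p = 2.5e-05, DESeq2), and the other that of RpL10Ab (-0.20, adjusted p = 0.048, DESeq2), in the authors' deposited table.

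Since the deletion removes a nuclear localization signal, genes of nuclear transport were examined as a list. Of 21 import and export genes 8 (38.1%) rose and 3 (14.3%) fell, against 11.6% and 11.9% of all genes. Of 22 nuclear pore genes 0 rose and 3 (13.6%) fell. In both lists the share that fell was near that of all genes. The importin genes msk and Karybeta3 rose by 0.38 and 0.35 (adjusted p = 9.5e-08 and 2.5e-05, DESeq2), Kap-alpha1, an adaptor for basic localization signals, by 0.27 (adjusted p = 0.0017, DESeq2), and the GTPase gene Ran by 0.25 (adjusted p = 9.1e-06, DESeq2), in the authors' deposited table. Among pore genes Nup37 fell by 0.59 (adjusted p = 7.6e-05, DESeq2) and Nup43 by 0.50 (adjusted p = 1.8e-04, DESeq2) in the authors' deposited table.

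**Figure D2:**
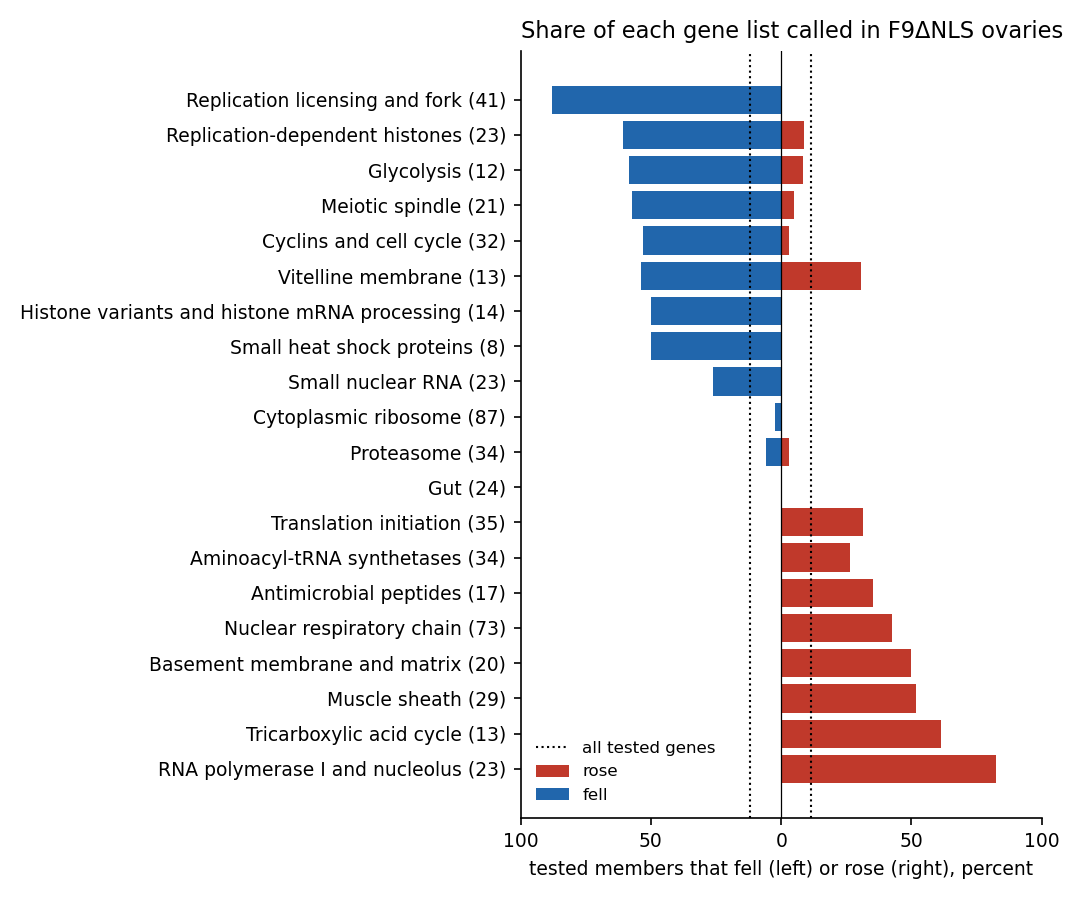
Bars give the percentage of tested members of a list that fell (left, blue) or rose (right, red) in F9ΔNLS, with the number tested in brackets and the shares over all tested genes, 11.9% and 11.6%, as dotted lines. Replication genes fell in 87.8% and nucleolar genes rose in 82.6%, while cytoplasmic ribosomal protein genes stayed under both lines.

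Carbon metabolism split between compartments. Of 13 tricarboxylic acid cycle genes 8 (61.5%) rose and 0 fell, and of 12 glycolytic genes 7 (58.3%) fell and 1 rose. Idh3a (l(1)G0156 in the authors' deposited table) and kdn, which encode isocitrate dehydrogenase and citrate synthase, rose by 0.40 and 0.42 (adjusted p = 1.5e-09 and 0.0013, DESeq2). mAcon1 (Acon in the authors' deposited table), the aconitase gene, rose by 0.37 (adjusted p = 1.6e-05, DESeq2). On the glycolytic side Pgk fell by 0.35, Pglym78 by 0.34 and Tpi by 0.32 (adjusted p = 1.9e-05, 3.6e-06 and 2.2e-04, DESeq2) in the authors' deposited table. Pfk, the committed step, fell by 0.31 (adjusted p = 0.0014, DESeq2), and PyK, the last step, had a value of -0.17 (adjusted p = 0.083, DESeq2), in the authors' deposited table. Nuclear genes of the respiratory chain rose in 31 (42.5%) of 73 cases and fell in 0, with a median of 0.19. Mitochondrial ribosomal protein genes were closer to the background, with 10 (13.7%) of 73 up and 0 down. In M6stop 8 of the 13 cycle genes and 25 of the 73 respiratory genes rose as well, whereas 0 of 12 glycolytic genes fell and 1 rose. Muscle, a tissue rich in mitochondria, had markers that rose beside these groups, and their part in the result was not tested.

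**Figure D3:**
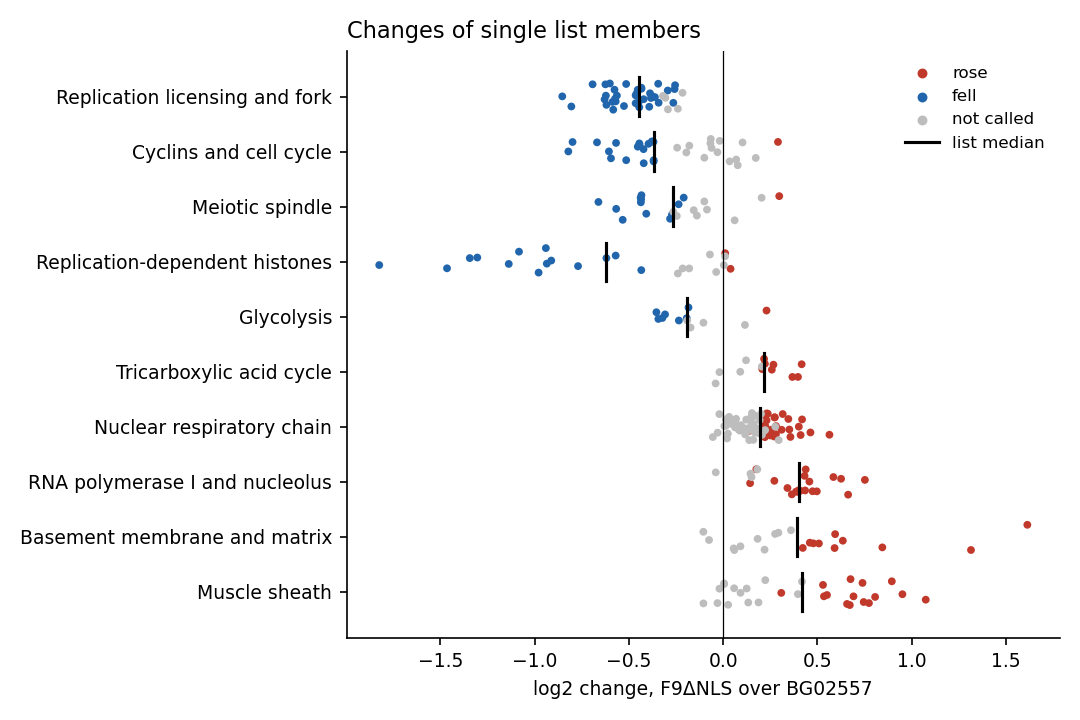
Each point is the log2 change of a tested list member in F9ΔNLS over BG02557, red where it rose, blue where it fell and grey where it did not pass, with a black bar at the list median. All 41 replication genes lie below 0 around a median of -0.45, and the respiratory and cycle genes form a narrow band around 0.19 and 0.22.

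Genes of oocyte maturation and meiosis were among those that fell. Of 21 meiotic spindle genes 12 (57.1%) fell and 1 rose, of 27 synapsis and recombination genes 6 (22.2%) fell and 1 rose, and of 15 egg activation genes 7 (46.7%) fell and 1 rose. mei-38, a microtubule protein gene of the oocyte spindle, fell by 0.66 (adjusted p = 0.0014, DESeq2), and Klp3A, a kinesin gene, by 0.43 (adjusted p = 0.0025, DESeq2), in the authors' deposited table. narya (CG12200 in the authors' deposited table), which acts in forming meiotic breaks, fell by 0.69 (adjusted p = 0.0028, DESeq2). By contrast rec, an MCM-like crossover gene, rose by 0.49 (adjusted p = 0.0062, DESeq2) in the authors' deposited table. The meiotic phosphatase gene twe fell by 0.44 (adjusted p = 0.0058, DESeq2), and the poly(A) polymerase gene wisp had a value of -0.02 (adjusted p = 0.89, DESeq2), in the authors' deposited table. The oocyte thioredoxin gene dhd fell by 1.20 (adjusted p = 3.3e-19, DESeq2) and stood at -0.97 in M6stop (adjusted p = 1.9e-12, DESeq2) in the authors' deposited table.

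Maternal axis and germline stem cell genes moved in both directions. Of 23 oocyte axis genes 8 (34.8%) rose and 3 (13.0%) fell. osk, the organiser of germ plasm, rose by 0.36 (adjusted p = 0.0026, DESeq2), and its regulators orb and sqd rose by 0.40 and 0.35 (adjusted p = 2.0e-04 and 3.6e-07, DESeq2), in the authors' deposited table. nos, which encodes the translational repressor of the posterior pole, fell by 0.60 (adjusted p = 5.0e-04, DESeq2) while its partner gene pum rose by 0.37 (adjusted p = 0.0026, DESeq2) in the authors' deposited table. The 21 germline stem cell genes tested included 6 (28.6%) that rose and 2 (9.52%) that fell, against 11.6% and 11.9% of all genes. Dad, a target and inhibitor of the BMP signal that keeps stem cells, rose by 0.62 (adjusted p = 8.9e-10, DESeq2), and bam, which starts differentiation, had a value of -0.14 (adjusted p = 0.30, DESeq2), in the authors' deposited table. In M6stop 1 of the 21 rose and 0 fell, namely Dad with a value of 0.40 (adjusted p = 2.3e-04, DESeq2) in the authors' deposited table.

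Genes of the piRNA pathway, which silences transposons in the germline, changed in both directions too. Of 12 nuage genes 3 (25%) rose and 4 (33.3%) fell, against 11.6% and 11.9% of all genes. Of 22 nuclear piRNA genes 4 (18.2%) rose and 2 (9.09%) fell, and of 12 precursor processing genes 2 (16.7%) rose and 0 fell. These lists are short, and whether their shares differ from those of all genes was not tested. The Tudor-domain gene qin rose by 0.67 (adjusted p = 3.4e-16, DESeq2) and the Piwi-family gene aub by 0.44 (adjusted p = 3.5e-05, DESeq2) in the authors' deposited table. krimp, which links aub and AGO3 in the nuage, fell by 0.50 (adjusted p = 5.6e-04, DESeq2) in the authors' deposited table. rhi, the chromatin protein gene of dual-strand piRNA source loci, fell by 0.76 (adjusted p = 6.8e-07, DESeq2) and stood at -0.65 in M6stop (adjusted p = 4.1e-05, DESeq2). Its cofactor gene del rose by 0.26 (adjusted p = 0.0075, DESeq2), and kipf (CG2678 in the authors' deposited table), which guides rhi to a subset of loci, rose by 0.42 (adjusted p = 0.0014, DESeq2). piwi itself had a value of 0.02 (adjusted p = 0.88, DESeq2) in the authors' deposited table.

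Follicle cell fate genes rose in part, and eggshell genes moved in both directions. Of 24 follicle cell fate genes 8 (33.3%) rose and 1 fell, and of 13 vitelline membrane genes 4 (30.8%) rose and 7 (53.8%) fell. tj, the transcription factor gene of early follicle cells, rose by 0.53 (adjusted p = 0.0017, DESeq2) and mirr, a dorsal-anterior patterning gene, by 0.61 (adjusted p = 0.0057, DESeq2) in the authors' deposited table. ct and br, regulators of the switch from mitosis to endocycles and of later fates, rose by 0.40 each (adjusted p = 0.013 and 0.026, DESeq2) in the authors' deposited table. Vm34Ca and Vm26Aa, structural proteins of the vitelline membrane, fell by 1.02 and 0.85 (adjusted p = 3.7e-06 and 1.2e-04, DESeq2), and ndl, the protease gene that starts the dorsal cascade, by 0.58 (adjusted p = 0.0021, DESeq2), in the authors' deposited table. By contrast fs(1)M3, of the same list, rose by 0.53 (adjusted p = 1.6e-07, DESeq2), at a mean of 8583 normalized counts, in the authors' deposited table. dec-1, an eggshell gene of middle stages, fell by 1.83 (adjusted p = 3.0e-04, DESeq2) and the ionotropic receptor gene Ir7c, which starts nearby at 7874394 on X, fell by 1.88 (adjusted p = 7.3e-04, DESeq2) in the authors' deposited table. In M6stop these had values of 0.01 and 0.01 (adjusted p = 0.90 and 0.90, DESeq2) in the authors' deposited table. Among the 18 tested chorion genes were 2 (11.1%) that rose and 4 (22.2%) that fell. Beside dec-1 the falls were those of Fcp3C, Cp7Fb and Cp7Fc, at deposited values of -0.16, -0.11 and -0.11 (adjusted p = 0.015, 0.025 and 0.020, DESeq2). CG13992, the chorion list member with the smallest p, rose by 0.89 (adjusted p = 2.7e-10, DESeq2), while Cp15 and Cp38, at means of 40953 and 38360 normalized counts, had values of -0.01 and -0.05 (adjusted p = 0.94 and 0.39, DESeq2), in the authors' deposited table. Among 7 yolk and uptake genes Yp2 and the lipoprotein receptor gene LpR2 rose, by 0.71 and 0.33 (adjusted p = 0.016 and 2.3e-06, DESeq2), in the authors' deposited table.

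Genes of the extracellular matrix around the egg chambers rose in many cases. Of 20 basement membrane and matrix genes 10 (50%) rose and 0 fell, with a median of 0.39, and 0 of the 20 passed by DESeq2 in either direction in M6stop. The collagen IV genes vkg and Col4a1 each rose by 0.59 (adjusted p = 0.0022 and 0.0054, DESeq2), the laminin gene LanA by 0.46 (adjusted p = 0.011, DESeq2) and the perlecan gene trol by 0.63 (adjusted p = 0.0015, DESeq2) in the authors' deposited table. Pxn, a peroxidase that crosslinks collagen, rose by 1.61 (adjusted p = 5.4e-05, DESeq2) and the matrix metalloprotease gene Mmp2 by 1.31 (adjusted p = 5.9e-04, DESeq2) in the authors' deposited table. Markers of tissues that make matrix moved in part. Of 29 muscle genes 15 (51.7%) rose and 0 fell, with Mhc, the myosin heavy chain gene, up by 0.81 (adjusted p = 0.0036, DESeq2) in the authors' deposited table. The hemocyte gene Hml rose by 3.09 (adjusted p = 1.3e-11, DESeq2), but the hemocyte markers NimC1, eater and PPO1 had values of 0.07, 0.04 and -0.06 (adjusted p = 0.60, 0.80 and 0.65, DESeq2), in the authors' deposited table. In M6stop 6 of the 29 muscle genes rose, and Hml had a value of 2.14 (adjusted p = 7.4e-06, DESeq2) in the authors' deposited table. The part of those tissues in the rise of matrix genes was not tested.

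Reproductive tract, fat body and immune genes had some of the largest single rises. Of 16 spermatheca and oviduct genes 11 (68.8%) rose and 2 fell, with a median of 1.03, and in M6stop 6 of the 16 rose and 0 fell. The list was corrected after values were seen and holds several of the largest rises, so its count says little beyond those genes. Fbp1 and Fbp2, genes first described in the fat body, rose by 2.61 and 2.74 (adjusted p = 0.017 and 0.012, DESeq2), while the lipoprotein gene apolpp had a value of -0.13 (adjusted p = 0.45, DESeq2), in the authors' deposited table. Of 19 fat body genes 4 (21.1%) rose and 3 (15.8%) fell. Antimicrobial peptide genes rose in 6 (35.3%) of 17 cases and fell in 0. The antifungal peptide gene Drs, at a mean of 3697 normalized counts, rose by 2.39 (adjusted p = 1.1e-08, DESeq2) in the authors' deposited table. In M6stop 3 of the 17 rose, among them Drs with a value of 1.83 (adjusted p = 2.4e-05, DESeq2) in the authors' deposited table. AttC, CecA1 and DptB, peptide genes under Imd control, rose by 2.60, 1.18 and 3.64 (adjusted p = 0.0020, 0.017 and 0.0045, DESeq2), with means over all libraries of 31.8, 31.4 and 9.35 normalized counts, in the authors' deposited table. Of 29 Imd and Toll signalling genes 5 (17.2%) rose and 5 (17.2%) fell, beside 11.6% and 11.9% of all genes. imd, the adaptor gene, fell by 0.70 (adjusted p = 1.5e-06, DESeq2) and key, an IKK subunit gene, by 0.35 (adjusted p = 6.9e-04, DESeq2), whereas the receptor gene PGRP-LC rose by 0.34 (adjusted p = 0.0057, DESeq2), in the authors' deposited table. The recognition protein genes GNBP1 and PGRP-SB1 rose by 1.47 and 2.36 (adjusted p = 5.6e-09 and 0.0024, DESeq2), with means of 107 and 13.1 normalized counts, in the authors' deposited table.

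Chaperone genes differed in part by class. Of 8 small heat shock protein genes 4 (50%) fell and 0 rose, against 11.9% and 11.6% of all genes. The 4 that did not pass had values above 0. Hsp26, Hsp27 and Hsp23 fell by 1.03, 0.97 and 1.03 (adjusted p = 1.6e-06, 3.0e-05 and 2.0e-04, DESeq2) in the authors' deposited table, and in M6stop they had values of -0.05, -0.06 and 0.02 (adjusted p = 0.72, 0.65 and 0.89, DESeq2). Of 19 larger chaperone genes 7 (36.8%) rose and 2 (10.5%) fell, among them DnaJ-1 (-0.52, adjusted p = 2.3e-04, DESeq2). The mitochondrial chaperone genes Hsp60A, Hsc70-5 and Trap1 rose by 0.38, 0.42 and 0.33 (adjusted p = 8.9e-09, 3.0e-07 and 1.5e-06, DESeq2) in the authors' deposited table. Hsp83, with a mean of 81774 normalized counts, showed a value of 0.07 (adjusted p = 0.41, DESeq2) in the authors' deposited table.

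Detoxification and hormone lists held few shared directions. Of 74 cytochrome P450 genes 8 (10.8%) rose and 8 fell, and of 49 glutathione and sugar conjugation genes 5 rose and 7 fell, shares near those of all genes. GstE8 fell by 1.51 (adjusted p = 1.2e-06, DESeq2), and the glycosyltransferase genes Ugt86Da and Ugt86Dc rose by 0.72 and fell by 2.55 (adjusted p = 9.6e-15 and 9.3e-06, DESeq2), in the authors' deposited table. Of 25 ecdysone genes 5 (20%) rose and 1 (4%) fell. shd, which makes the active hormone 20-hydroxyecdysone, rose by 1.16 (adjusted p = 5.7e-05, DESeq2) and spo, an earlier step, by 0.70 (adjusted p = 0.012, DESeq2), while the response gene Eip74EF fell by 0.51 (adjusted p = 0.024, DESeq2), in the authors' deposited table. MtnA, a metallothionein gene, rose by 1.246 (adjusted p = 4.0e-04, DESeq2) and the zinc transporter gene ZnT35C by 0.64 (adjusted p = 4.2e-07, DESeq2) in the authors' deposited table. In M6stop they had values of 1.26 and 0.20 (adjusted p = 7.4e-04 and 0.16, DESeq2) in the authors' deposited table. Of 19 lipid genes 6 (31.6%) rose and 2 (10.5%) fell. The rises included the fatty acid synthase gene FASN1 (0.50, adjusted p = 0.0015, DESeq2) and ACC, which makes its substrate (0.31, adjusted p = 1.5e-05, DESeq2), in the authors' deposited table.

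The lists nearest to the known biochemistry of Pcif1 are short, and their shares stand beside 11.6% up and 11.9% down among all genes. Of 25 genes of the RNA polymerase II tail and of elongation 1 (4%) rose and 3 (12.0%) fell, of 11 mRNA cap genes 0 rose and 2 (18.2%) fell, of 9 m6A genes 0 rose and 1 (11.1%) fell, and of 11 Integrator genes 0 rose and 1 (9.09%) fell. Polr2B (RpII140 in the authors' deposited table), the second-largest polymerase subunit, fell by 0.28 (adjusted p = 0.0015, DESeq2), and Polr2A (RpII215 in the authors' deposited table), which carries the tail, had a value of 0.18 (adjusted p = 0.063, DESeq2). CycK, the cyclin of a tail kinase, rose by 0.30 (adjusted p = 3.2e-04, DESeq2) and Nelf-E, a pausing factor gene, fell by 0.36 (adjusted p = 0.011, DESeq2) in the authors' deposited table. Among cap genes Cbp20, a subunit of the nuclear cap-binding complex, fell by 0.37 (adjusted p = 0.0034, DESeq2) and CMTr2 (aft in the authors' deposited table), a cap ribose methyltransferase gene, by 0.25 (adjusted p = 0.0074, DESeq2). Mettl14, a subunit of the internal m6A writer, fell by 0.36 (adjusted p = 0.0014, DESeq2), while the reader gene Ythdf (CG6422 in the authors' deposited table) had a value of -0.02 (adjusted p = 0.90, DESeq2).

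RNA processing genes and small RNAs gave a mixed picture. Of 24 core splicing genes 3 (12.5%) rose and 4 (16.7%) fell, shares near the 11.6% and 11.9% of all genes. Of 25 decay and exosome genes 8 (32.0%) rose and 1 fell, with the exosome helicase gene Mtr4 up by 0.29 (adjusted p = 0.0010, DESeq2) in the authors' deposited table. Of 23 tested small nuclear RNA genes 6 (26.1%) fell and 0 rose. snRNA:U2:34ABa fell by 0.71 (adjusted p = 1.1e-06, DESeq2) and snRNA:U12, of the minor spliceosome, by 0.67 (adjusted p = 2.0e-04, DESeq2), whereas the most abundant U2 copy listed, snRNA:U2:34ABb, had a value of -0.16 (adjusted p = 0.19, DESeq2), in the authors' deposited table. Copies of U2 are nearly identical, so their split is uncertain. The signal recognition particle RNA gene 7SLRNA:CR32864, at a mean of 302132 normalized counts, fell by 0.40 (adjusted p = 1.7e-04, DESeq2) in the authors' deposited table. Of 176 small nucleolar RNA genes 4 (2.27%) rose and 2 (1.14%) fell, and of 468 long noncoding RNA genes 29 (6.20%) rose and 14 (2.99%) fell, many of them at low counts.

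Some of the genes with the smallest adjusted p are given next, whatever their function. Hrb87F, an hnRNP gene, rose by 0.56 (adjusted p = 1.1e-21, DESeq2) and Prps (CG6767 in the authors' deposited table), which makes the phosphoribosyl donor for nucleotides, rose by 0.91 (adjusted p = 1.3e-19, DESeq2). CG10184 rose by 1.75 (adjusted p = 3.5e-44, DESeq2) in the authors' deposited table. In the other direction Akr1B (CG6084 in the authors' deposited table), an aldo-keto reductase gene, fell by 1.12 (adjusted p = 3.5e-33, DESeq2), Mcad (CG12262 there), an acyl-CoA dehydrogenase gene of fatty acid oxidation, by 0.57 (adjusted p = 3.5e-24, DESeq2), and Fatp3 (CG3394 there), a fatty acid transport gene, fell by 1.53 (adjusted p = 1.3e-33, DESeq2). In M6stop, Fatp3 and CG10184 had log2 changes of -1.52 and 1.84 (adjusted p = 1.0e-32 and 3.0e-48, DESeq2), and Akr1B and Mcad had -0.13 and -0.13 (adjusted p = 0.33 and 0.075, DESeq2), in the authors' deposited table. Prps and Hrb87F had M6stop values of 0.53 and 0.12 (adjusted p = 5.1e-07 and 0.17, DESeq2) in the authors' deposited table.

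Large changes were ranked among genes at 50 or more normalized counts. The first 10 rises, led by CG2993, all rose in M6stop as well, measured against the same control libraries. The first 10 falls, led by CG12708, also fell in M6stop, except amd and TORIP, which did not pass there. Those ranked after the first 10 rises included Obp56d, an odorant-binding protein gene (2.88, adjusted p = 3.1e-04, DESeq2), the uncharacterized CG42329 (3.09, adjusted p = 1.0e-12, DESeq2) and CG18628 (3.07, adjusted p = 0.0073, DESeq2), and CG12355 (2.72, adjusted p = 3.3e-18, DESeq2), in the authors' deposited table. Falls after the first 10 included Cht2, a chitinase gene (-2.12, adjusted p = 3.3e-46, DESeq2), GLaz, a lipocalin gene (-2.01, adjusted p = 4.3e-37, DESeq2), Sema2b, a guidance ligand gene (-2.07, adjusted p = 2.3e-06, DESeq2), and Hayan, a protease gene of melanization (-2.02, adjusted p = 1.6e-05, DESeq2), in the authors' deposited table. In M6stop Cht2, GLaz, Sema2b and Hayan had values of -1.47, -1.52, -0.03 and -2.93 (adjusted p = 7.7e-23, 9.9e-22, 0.69 and 3.2e-09, DESeq2) in the authors' deposited table. Of the 50 largest rises and falls 14 overlap another tested gene, and strand was not stated for the counting, so their values are uncertain. CG7408 (-5.63, adjusted p = 1.4e-18, DESeq2) overlaps CG5506, whose value was -0.03 (adjusted p = 0.75, DESeq2), and Cht2 overlaps CG13921 (-0.32, adjusted p = 0.066, DESeq2), in the authors' deposited table.

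Changes were counted by distance from Pcif1, as a description without a test. Within 2 Mb of Pcif1 on 3L, 28.4% of 363 tested genes passed, against 23.3% on the rest of the arm beyond 5 Mb and 23.1% on other chromosomes. Called changes of at least 2 on the log2 scale made up 2.20% of the genes within 2 Mb, 1.11% on the rest of the arm and 0.673% on other chromosomes. With changes of at least 1 these shares were 3.03%, 2.8% and 2.4%, and the single 1 Mb window 6 to 7 Mb before Pcif1 reached 11.1% of 63 genes. The 8 genes within 2 Mb with called changes of at least 2 are named here after their values were seen. The genes that rose in the authors' deposited table were CG32212 (5.96, adjusted p = 2.2e-09, DESeq2), CG42833 (5.29, adjusted p = 8.0e-07, DESeq2), olf413 (2.73, adjusted p = 3.6e-15, DESeq2), CG14452 (7.12, adjusted p = 6.8e-06, DESeq2) and CG11370 (6.25, adjusted p = 2.3e-04, DESeq2), at means of 6.93 to 57.7 normalized counts. The genes that fell in the authors' deposited table were the torsin-interacting protein gene TORIP (-2.46, adjusted p = 1.3e-103, DESeq2), CG13813 (-2.93, adjusted p = 1.9e-07, DESeq2) and CG11241 (-3.72, adjusted p = 4.4e-19, DESeq2). In M6stop 4 of these genes, CG32212, CG42833, olf413 and CG14452, had log2 changes of 5.56, 6.08, 2.49 and 6.67 (adjusted p = 4.9e-08, 2.1e-08, 5.2e-12 and 5.7e-05, DESeq2), CG11370 had 0.03 (adjusted p = 0.011, DESeq2), CG11241 had -4.01 (adjusted p = 3.5e-19, DESeq2), and TORIP and CG13813 had -0.02 and 0.03 (adjusted p = 0.93 and 0.73, DESeq2), in the authors' deposited table. CG11370, at a mean of 6.93 normalized counts, thus passed in M6stop as well, at a value that shrinkage may understate. CG32212 overlaps hpRNA:CR33940 and CG13813 overlaps CG17233 on the other strand. Of the 5 nearest tested genes on each side of Pcif1, its neighbour CG11396 fell by 0.50 (adjusted p = 3.4e-05, DESeq2) and Spc105R, a kinetochore gene, by 0.38 (adjusted p = 0.026, DESeq2), and the others, such as Pex16 (-0.15, adjusted p = 0.25, DESeq2) and Pitslre (0.04, adjusted p = 0.82, DESeq2), were not called, in the authors' deposited table. CG11396 and Spc105R had M6stop values of -0.38 and -0.05 (adjusted p = 0.0028 and 0.72, DESeq2) in the authors' deposited table. Sequence linked to the edited allele and the allele itself cannot be told apart here.

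**Figure D4:**
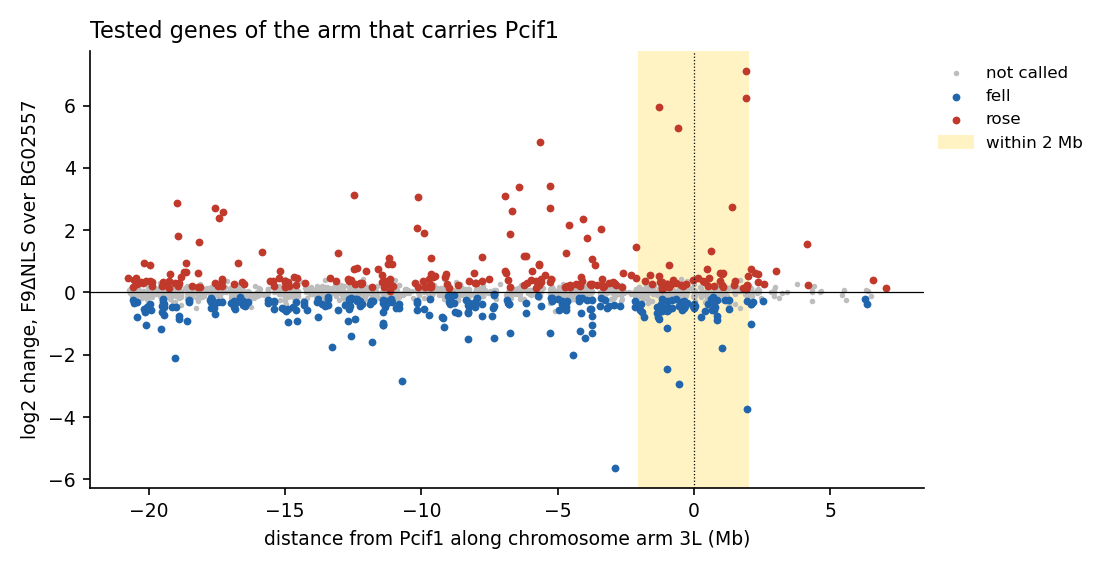
The tested genes of chromosome arm 3L are drawn by their distance from Pcif1 in Mb (horizontal axis) and their log2 change of F9ΔNLS over BG02557 (vertical axis), with the 2 Mb on either side shaded. Of the genes within the shaded band 8 were called with a log2 change of at least 2, 5 upward and 3 downward.

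Neighbouring genes changed together at 8 places, counting runs of at least 4 adjacent tested genes called in 1 direction. One run of 6 rose on 2L from 2250431 to 2308872 and holds the secreted proteases Ser12, CG17239, CG17234, Send1 and CG31681 with CG16995. Another run of 6 fell on 2L from 21452934 to 21469368 within the histone repeats. A run of 5 rose on 3L from 22695953 to 22717577, with CG14452 and CG11370 (already given), CG32453, CG45116 and ArfGAP3. CG32453 and CG45116 had values of 0.12 and 0.10 (adjusted p = 0.011 and 0.039, DESeq2) in the authors' deposited table, which shrinkage may understate. The means of CG14452, CG11370, CG32453 and CG45116 were 12.7, 6.93, 3.56 and 2.91 normalized counts, so most of the run rests on low counts. ArfGAP3, at a mean of 2011 normalized counts, rose by 0.25 (adjusted p = 1.3e-04, DESeq2) in the authors' deposited table. The fourth chromosome had a higher share of rises than the long arms, again without a test: of its 90 tested genes 22 (24.4%) rose and 6 (6.67%) fell, while on X, 2L, 2R, 3L and 3R between 10.3% and 12.0% rose and between 11.1% and 12.8% fell.

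The share of genes that rose was higher in longer genes, which is also a description without a test. In the shortest quintile by exon length, up to 1031 bases, 7.22% rose and 8.69% fell, and in the longest quintile, from 3909 bases, 18.9% rose and 6.86% fell. The second and the middle quintile had 7% and 10.7% up and 15.5% and 15.2% down. Long genes also had more counts, with a median mean of 1717 normalized counts in the longest quintile against 152 in the shortest. Among genes above the median of mean counts the longest quintile had 21.5% up and 7.93% down, and among genes below it 13% up and 4.44% down. Genes with 8 or more exon blocks rose in 17.7% and fell in 9.12%, against 7.18% and 9.87% of genes with 1.

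**Figure D5:**
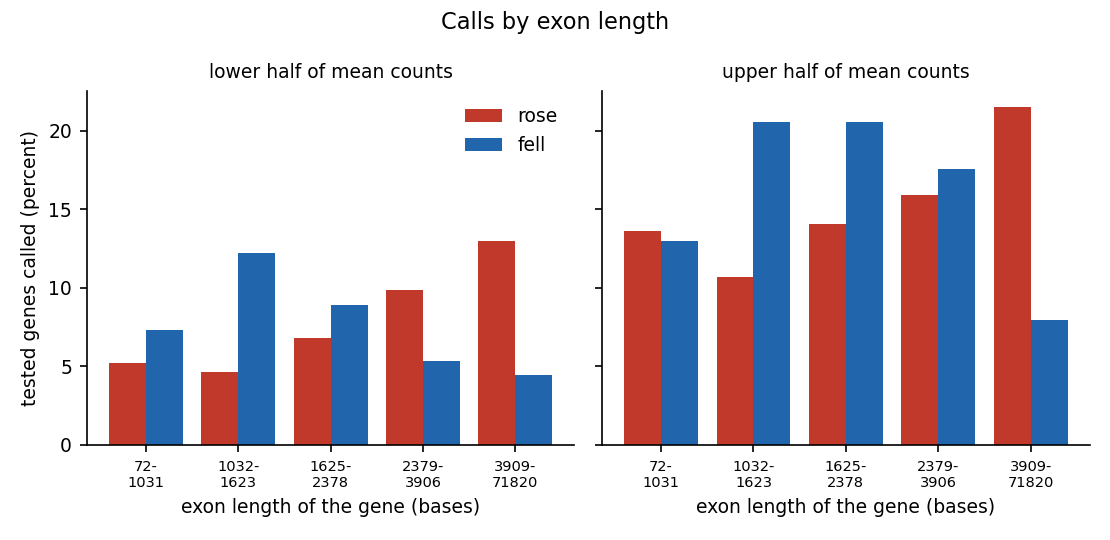
Bars give the percentage of tested genes that rose (red) or fell (blue) in each quintile of exon length, for genes below (left) and above (right) the median of mean counts. The share that rose is highest in the longest quintile in both panels, at 13% and 21.5%.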

How the data were processed

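The 9 libraries, 3 for each of 3 lines, hold ribosomal-RNA-depleted ovary RNA read as paired ends, per the labels' protocols. The submitters' processing notes name DESeq2 1.25.10, DESeq, the build BDGP6, R 3.6.3 and Salmon 1.3.0, without roles. Strand setting, annotation release and gene filters are not stated. Of each gene, the authors' deposited table holds a signal value, its mean normalized count (in DESeq2 a column so named averages the size-factor-scaled counts of all libraries). The log2 fold changes over the control line were computed by the authors before deposit, per the file headers. No base is stated for the logarithm, and base 2 was taken. The adjusted p-values were likewise deposited by the authors, and unadjusted ones were not used here.

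The table's 9 columns of values per library have codes as names that match no label and were not used, so the planned edgeR fit gave way to the authors' contrast. Depths of single libraries and intervals that need them are not analysed here. The mean counts of the table sum to 5.07e+07, of which 56.2% belong to genes annotated as ribosomal RNA. Of the adjusted p-values 51.7% are tied.

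Rises and falls at an adjusted p under 0.05 were then counted over all tested genes, 61 gene lists, distance from Pcif1, exon length, level and biotype with Python 3.11.15 and pandas 2.3.3. Of 17199 identifiers 17063 had a position in Ensembl release 115 (BDGP6.54), which gives the coordinates and exon lengths. The lists and the genes named were chosen with earlier results of these data known, and some list entries were corrected after the table was seen. Named genes were Pcif1, w, the 25 largest rises and falls at a mean of at least 50, the 15 smallest p in each direction, the 10 highest mean counts among called genes, up to 5 called and 3 abundant members per list, and the 5 nearest neighbours of Pcif1 on each side. Genes outside these, namely the mature ribosomal RNA genes, overlapping genes, genes of runs and of the windows around Pcif1, were named after their values were seen. The counting steps were tested on simulated data. Promoter and protein sequences were not analysed here.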

Additional observations from a re-analysis of the deposited data

How the results depend on the processing

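The number of genes called depended on the threshold. Of the 2497 genes called, 1495 passed at an adjusted p under 0.01, and 776 had an absolute log2 change of at least 0.5. For rises these numbers were 756 and 406 of 1233, and for falls 739 and 370 of 1264. The gene lists together held 280 genes that rose, of which 162 passed at 0.01, and 215 that fell, of which 149 did. An adjusted p under 0.1, a mean of at least 50 normalized counts, protein-coding genes alone, fold changes centred on the median of tested genes and leaving out genes within 5 Mb of Pcif1 each left the counts over all genes or over all lists together, where applied, within 1.5 times of these. Of the 122 counts for single lists, rises and falls apart, 52 moved beyond that at 0.01, 25 at 0.1 and 11 at a mean of at least 50. Replication genes fell in 31 of 41 cases and nucleolar genes rose in 17 of 23 at an adjusted p under 0.01. Follicle cell fate genes that rose went from 8 to 2, and antimicrobial peptide genes from 6 to 3. Of 444 genes named by rule and tested, 63 were not called at 0.01 and 15 more were called at 0.1. Of 60 list medians 7 moved at a mean of at least 50, and that of the neuron list changed sign, from -0.02 to 0.20. The sign of a single gene's deposited value cannot change under these alternatives, other than by centring.

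DESeq2 against edgeR scaling, other filters on low counts and fits without each replicate were not run, since values per library could not be tied to lines. No paired analysis was possible because the library columns carry no replicate number of the labels. How the depth of single libraries limits these calls is not known.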
